A study of Mus musculus with 6 samples.

Results

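The nuclear genes for the subunits of the mitochondrial respiratory chain and ATP synthase were followed across the cell classes of the mouse pons and medulla, and between mice given chronic intermittent hypoxia (CIH) and mice kept in room air. They were chosen by symbol alone: the numbered Nduf genes of the a, b, c, s and v series, the 4 Sdh subunits, the Uqcr genes with Cyc1, the genes from Cox4 to Cox8, and the Atp5 genes. The rule took 86 of the 32285 genes counted, 36 for complex I, 4 for complex II, 9 for complex III, 20 for complex IV and 17 for complex V. Ndufa4 and its paralog Ndufa4l2 were placed with complex IV, where the NDUFA4 protein is known to sit. Together the members held 716164 unique molecular identifiers (UMIs), with a median of 7482 per gene and a range from 0 to 27745. Cox8c had no UMI, and Cox8b and Cox6a2, both muscle isoforms, had under 50 UMIs each.

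The respiratory chain takes electrons from NADH at complex I and from succinate at complex II, hands them through ubiquinone to complex III and through cytochrome c to complex IV, and there reduces oxygen to water. Protons pumped along the way drive complex V, the ATP synthase. Complexes I, III, IV and V mix subunits encoded in the nucleus with subunits encoded in mitochondrial DNA, complex II is wholly nuclear, and several complex IV subunits exist as paralogs used by particular tissues or at low oxygen. Neurons draw most of their ATP from this chain. The transcripts counted here are those in or adhering to sorted nuclei, so the values are RNA levels and not amounts of protein or activity.

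All mice were male, wild type and of strain C57BL6/J, and were weaned on postnatal day 21. From postnatal day 22 to 43, 21 days, nitrogen lowered oxygen in the CIH chambers to 4.5 to 5% within 60 seconds, and air returned it to 21% within 5 minutes, for 80 cycles a day over 8 hours. The normoxia group breathed room air over the same ages. Nuclei were sorted on a DNA stain and run as 3 droplet libraries in each group. The number of mice behind a library is not given, so every p-value measures the spread between these libraries.

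The filters, a minimum of 500 genes and a maximum of 5% mitochondrially encoded UMIs, kept 40139 of 43836 barcodes, 4350 to 10643 per library, with 26542300 to 46348273 UMIs per library and a median of 2349 to 3638.5 UMIs per nucleus. Nuclei were assigned to a class by a gate on marker UMIs, which took 34556 of them: the top class needed at least 3 UMIs from at least 2 of its markers and 3 times the UMIs of the next class. Classes are therefore gated ranges of a marker score, and doublets were not removed beyond what the gate left out. The share of a class lying near the gate ran from 3.85% of 11797 oligodendrocytes to 52.9% of 136 fibroblasts, and was 22.1% of 195 mural cells (pericytes and smooth muscle). Neurons lacking a clear transmitter marker are called unsplit. The third CIH library stood apart from the other 2 of its group. Over all genes its counts differed from theirs by a chi-square of 47.8 and 49.1 per gene, against 2.38 between those 2, and the third normoxia library stood apart less, at 21.6 and 26.1 against 2.87. In the third CIH library the mitochondrially encoded share was 0.331% of UMIs, against 0.0772 to 0.118% in the other 5 libraries, the ribosomal protein share was 0.550% against 0.287 to 0.330%, and it supplied 137 of the 195 mural and 475 of the 810 endothelial nuclei. In addition, the first CIH and second normoxia libraries shared 1163 barcodes (26.7% and 17.6% of their nuclei), against 2 to 31 in the other 14 pairs of libraries, and in 1159 of these the CIH copy held more UMIs, at a median ratio of 7.95. Of the genes detected in the normoxia copies, 93.7% were also detected in the CIH copy of the same barcode, against 56.6% in another nucleus of the set. The cause was not tested. Nuclei with shared barcodes stay in the levels, class comparisons and mitochondrial bins below unless stated otherwise. Results are given with and without the third CIH library. With the shared barcodes left out, no count of members called between CIH and normoxia changed, and the median fold change in all nuclei was 0.47 against 0.46.

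Promoters of the members show what the genes share in sequence. RefSeq promoters (GRCm38.p6, 250 bases before to 50 after a start) were found for 69 of the 86 members, 74 promoters in all, and were searched on both strands. The core of the nuclear respiratory factor site, GCGCA then any base then GCGC, the motif of a transcription factor known for activating respiratory genes, stood in 14 of these 74 (18.9%) and in 3.74% of all 32851 promoters. Among the 14 are 2 overlapping promoters of Ndufa5 that hold the same site. The ETS-family core CCGGAAG stood in 16.2% against 6.91%. Of the hypoxia response cores, which share their last 4 bases, ACGTG stood in 21.6% against 16.6% and GCGTG in 41.9% against 28.2%. The members' promoters had a median GC content of 56.2%, against 52.4% over all promoters; the part of GC content in these shares was not tested. A match in letters is a description and not a binding site. Stretches free of exons around the core are printed below for genes of 3 complexes, with the core in capitals, to show its place before the start.
Atp5h, complex V, chr11:115420021-115420090, minus strand: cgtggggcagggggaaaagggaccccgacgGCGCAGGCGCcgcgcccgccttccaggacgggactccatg
Ndufs5, complex I, chr4:123718245-123718314, minus strand: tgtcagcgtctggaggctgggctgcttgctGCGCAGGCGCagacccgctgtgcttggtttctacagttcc
Cox6a1, complex IV, chr5:115349036-115349129, minus strand: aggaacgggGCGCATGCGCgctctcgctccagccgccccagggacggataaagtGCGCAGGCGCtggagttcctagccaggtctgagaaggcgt
Ndufb4, complex I, chr16:37654520-37654589, minus strand: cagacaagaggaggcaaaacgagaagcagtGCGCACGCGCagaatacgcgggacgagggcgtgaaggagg
The core began 141 bases before the start in Atp5h (ATP synthase stalk), 98 in Ndufs5 and 191 in Ndufb4 (both accessory subunits of complex I), whose promoter held further matches nearer the start. Cox6a1, the widely used isoform of a complex IV subunit, carried it at 162 and again at 117 bases. No promoter was found in the table for Cox4i1, Cox4i2 or Ndufa4l2.

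The members' summed level was compared first between classes. It was expressed as CPM, the usual scaling of counts to a fixed total, here of all UMIs of the class in that library. Endothelial cells held the highest level, 7370 ± 892 CPM (SD, n = 6 libraries), followed by mural cells at 6143 ± 1798 (n = 5 libraries with at least 10 nuclei), astrocytes at 4755 ± 1175, fibroblasts at 4689 ± 1172 (n = 5) and microglia at 4519 ± 1840. Unsplit neurons stood at 3341 ± 964, granule neurons at 3334 ± 1049, inhibitory neurons at 3325 ± 801, oligodendrocytes at 3213 ± 1370, oligodendrocyte precursors at 2956 ± 1118 and excitatory neurons at 2800 ± 629. In this order of 11 classes each class differed from the next by less than the larger SD of the pair. The lowest endothelial library, at 6043 CPM, was above the highest library of every neuron class. Relative to excitatory neurons the endothelial mean was 3.07 times the level for complex IV, 2.85 times for complex III, 2.56 times for complex I, 2.53 times for complex V and 1.42 times for complex II. In oligodendrocyte precursors complex II was 0.697 of its level in excitatory neurons while complex I was 1.03 of it.

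**Figure D1:**
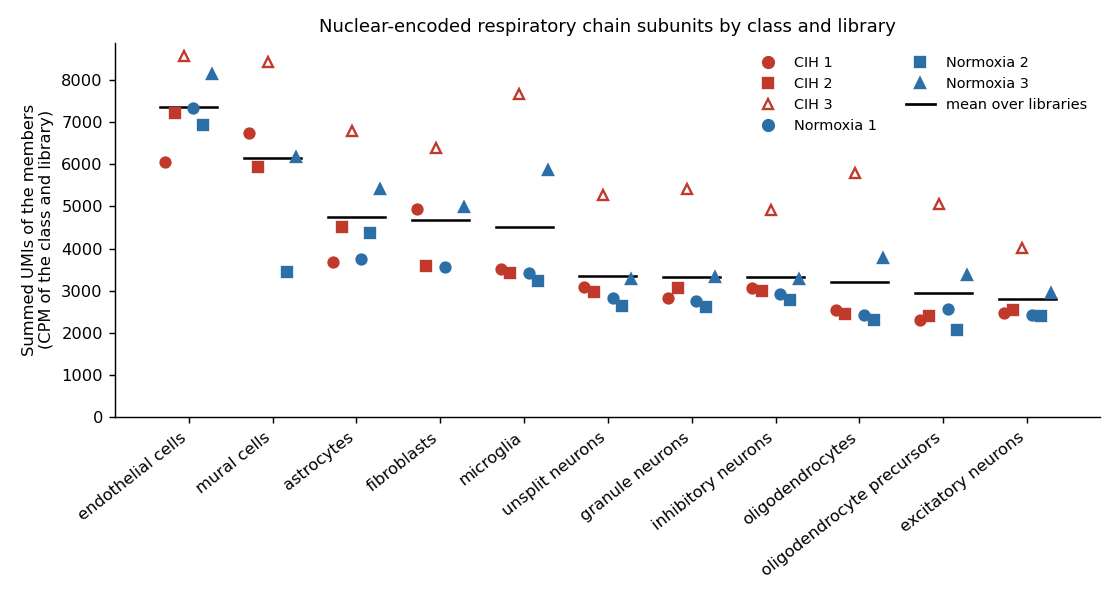
Summed UMIs of the 86 members, as CPM of the class and library (vertical axis), for each library with at least 10 nuclei of a class; bars are means over libraries. All 6 endothelial libraries lie at or above 6043 CPM, and the third CIH library (open triangles) is the highest of its group in every class.

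Each class was then compared with the mean of the other classes in the same libraries (edgeR quasi-likelihood test with a library block). Of the 86 members 82 passed the low-count filter; Cox6a2, Cox7a1, Cox8b and Cox8c did not. In endothelial cells 62 of these 82 were higher and 1 lower at an adjusted p (Benjamini-Hochberg) under 0.05, where 23.5% and 19.1% of all 12785 genes tested were higher and lower. The median log2 difference was 0.66 over the members and -0.04 over all genes. Calls covered 25 of 36 members of complex I, 8 of 9 of complex III, 14 of 16 of complex IV and 14 of 17 of complex V, but 1 of 4 of complex II. Ndufa7, an accessory subunit of complex I (chr17:33824572-33838317, plus strand, mm10), measured 123, 184 and 113 CPM in the CIH and 227, 172 and 174 CPM in the normoxia libraries of endothelial cells. In excitatory neurons its range was 12.99 to 34.1 CPM, with no overlap between the classes. The endothelial log2 difference of Ndufa7 was 1.59 ± 0.17 (SE; edgeR adjusted p = 1.04e-12). In normoxia libraries alone 40 members were higher and 0 lower in endothelial cells, against 15.2% and 6.91% of all genes.

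In astrocytes 41 members were higher and 0 lower, against 26% and 14.6% of all genes, with a median of 0.38 over the members and 0.07 over all genes. Among nuclei with at most 0.1% mitochondrial UMIs the counts were 12 and 0 of 80 members tested, against 14.5% and 5.51% of all genes. All 4 complex II genes were among the calls, with 12 of complex I, 5 of complex III, 12 of complex IV and 8 of complex V. Sdha, the flavoprotein that oxidizes succinate (chr13:74322254-74350280, minus strand), measured 150, 115 and 94.8 CPM in astrocytes under CIH and 123, 117 and 96.5 CPM under normoxia, a log2 difference of 0.50 ± 0.11 (edgeR adjusted p = 5.96e-05). The same gene was lower in oligodendrocyte precursors, at 12.1, 53.9 and 42.2 CPM under CIH and 51.0, 50.4 and 19.8 CPM under normoxia, a log2 difference of -1.10 ± 0.22 (edgeR adjusted p = 4.76e-05) from 33 UMIs. The highest precursor library was below the lowest astrocyte library. Sdhb, the iron-sulfur subunit, was also lower in precursors, at -0.91 ± 0.32 on the log2 scale (edgeR adjusted p = 0.0272), and Sdha and Sdhb made up 2 of the 4 members called lower there, with 0 higher, against 7.46% lower and 15.5% higher over all genes. Atp5c1, the rotor stalk of ATP synthase, had an astrocyte log2 difference of 0.82 ± 0.11 (edgeR adjusted p = 1.49e-09). Sdhd, a membrane anchor of complex II, was called higher in 5 classes, but fibroblasts had no Sdhd UMI, and with mural cells and fibroblasts left out its astrocyte difference of 1.39 became 0.55 (edgeR adjusted p = 0.147).

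Excitatory neurons showed the opposite balance, with 54 members lower and 5 higher, against 21.8% and 38.6% of all genes, and a median of -0.41 over the members and 0.12 over all genes. Calls of lower level covered 22 of 36 members of complex I, 7 of 9 of complex III, 11 of 16 of complex IV and 13 of 17 of complex V. Atp5e, the epsilon subunit of ATP synthase (chr2:174461072-174464105, minus strand), measured 11.8, 11.6 and 34.3 CPM under CIH and 7.20, 7.19 and 15.0 CPM under normoxia, the third library being highest in both groups. Its log2 difference was -0.95 ± 0.11 (edgeR adjusted p = 1.13e-11). In inhibitory neurons 29 members were lower and 13 higher, against 21.1% and 39.7% of all genes. Granule neurons had 16 lower and 9 higher, against 14.9% and 38%, and unsplit neurons 22 lower and 7 higher, against 18.6% and 38.9%. These balances depended on the libraries and nuclei used. Without the third CIH library, when 41.3% and 12.9% of all genes were called higher and lower in excitatory neurons, the members called in either direction were 39 in excitatory neurons in place of 59, 24 in inhibitory in place of 42, 16 in unsplit in place of 29 and 13 in granule neurons in place of 25. In normoxia libraries alone excitatory neurons had 15 lower and 6 higher, against 7.65% and 36.5% of all genes, while the median over all genes moved to 0.55 and that over the members to -0.14. Among nuclei with at most 0.1% mitochondrial UMIs they had 4 lower and 10 higher of 80 members tested, against 4.21% and 36.0% of all genes, with medians of 0.05 over the members and 0.81 over all genes. Inhibitory neurons there had 0 lower and 20 higher, against 4.15% and 36.6% of all genes.

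A few long complex I genes went the other way in neurons. Ndufs4, an accessory subunit whose loss causes encephalopathy in mice (chr13:114287795-114388258, minus strand), measured 155, 138 and 137 CPM in inhibitory neurons under CIH and 144, 149 and 131 CPM under normoxia. In oligodendrocytes it measured 72.1, 72.2 and 79.7 CPM under CIH and 73.1, 66.5 and 71.1 CPM under normoxia, so the 6 libraries of these classes did not overlap. The log2 difference from the other classes was 0.42 ± 0.06 in inhibitory neurons (edgeR adjusted p = 4.17e-09) and -0.49 ± 0.07 in oligodendrocytes (edgeR adjusted p = 9.62e-10). Ndufa10, also an accessory subunit (chr1:92439010-92473860, minus strand), was likewise higher in inhibitory neurons, by 0.59 ± 0.07 (edgeR adjusted p = 6.80e-11), with 72.3, 76.1 and 75.8 CPM under CIH and 77.9, 80.1 and 72.5 CPM under normoxia. Ndufs1, the largest core subunit of complex I, was higher in oligodendrocytes by 0.41 ± 0.07 (edgeR adjusted p = 6.20e-07) and lower in microglia, at -0.44 ± 0.13 (edgeR adjusted p = 0.00300). Oligodendrocytes had 14 members higher and 3 lower, against 40.1% and 22.1% of all genes, and this balance turned to 3 higher and 30 lower with RLE size factors, against 27.9% and 29.9% of all genes, as the median over all genes moved from 0.13 to -0.08. Microglia had 7 higher and 4 lower, against 29.5% and 25.6%, and 3 higher and 8 lower with RLE, against 26.4% and 28.6%. Mural cells had 4 higher and 1 lower, against 7.95% and 11.8%, and fibroblasts 1 higher and 3 lower, against 9.47% and 11.5%.

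The size of the gene went with the class differences in some classes. Across the 82 members, which are not independent replicates, the log2 difference in excitatory neurons correlated with the gene's genomic span at a Spearman rho of 0.59, and in endothelial cells at -0.49; over all 12784 genes with a span the values were 0.28 and -0.28. The members' rho was 0.57 in inhibitory, 0.50 in unsplit and 0.48 in granule neurons, -0.35 in mural cells and -0.21 in microglia. It was weaker in oligodendrocytes (-0.16), precursors (-0.12), fibroblasts (-0.08) and astrocytes (0.10). Members under 5000 bases had a median of -0.52 in excitatory neurons and 0.88 in endothelial cells (26 genes), and those of 20000 bases or more had 0.11 and -0.12 (11 genes). In astrocytes these medians were 0.40 for short and 0.56 for long members. Genes of any kind showed a smaller spread of the same sign: in excitatory neurons -0.33 for short and 0.23 for long genes, in endothelial cells 0.62 and -0.20. The members span 953 to 105382 bases. The part of gene length in the class differences was not tested.

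**Figure D2:**
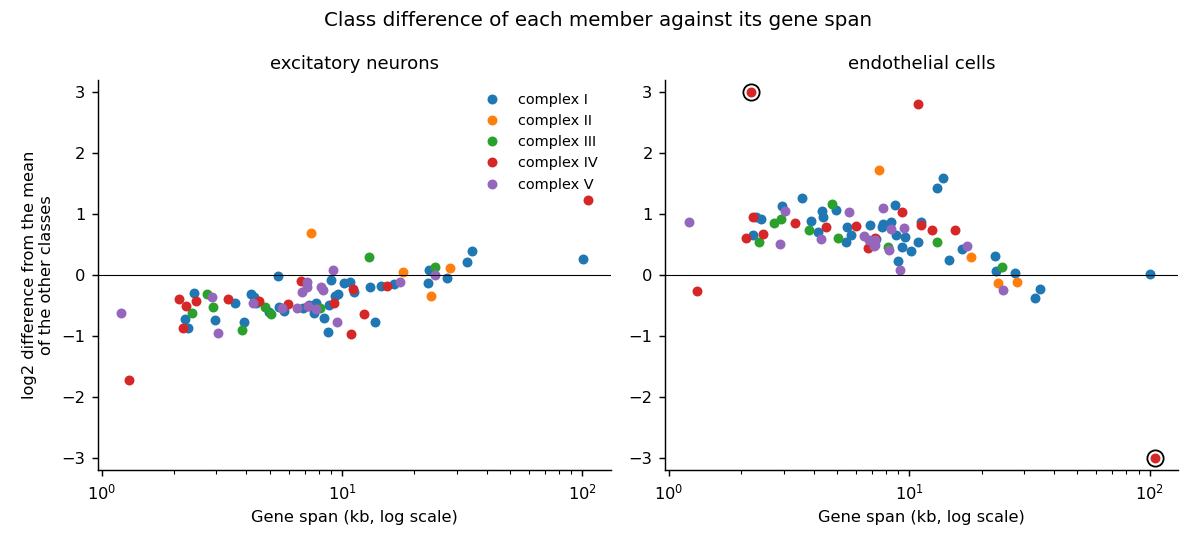
Log2 difference of each member from the mean of the other classes (vertical axis) against its genomic span in kilobases (horizontal axis, log scale), coloured by complex, in excitatory neurons and endothelial cells. Short members lie low in excitatory neurons and high in endothelial cells; the circled points, drawn at the edge of the axis, are Ndufa4l2 at 4.69 and Cox7b2 at -6.12.

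Mitochondrial share and depth also moved with the members' level. Mitochondrially encoded transcripts averaged 14632 CPM in endothelial cells, 6896 in mural cells, 2904 in astrocytes and 744 in excitatory neurons, and ribosomal protein transcripts 13292 CPM in endothelial cells and 2691 in excitatory neurons. The median depth was 1312 UMIs per nucleus in endothelial cells and 7123 in excitatory neurons. Among nuclei with at most 0.1% mitochondrial UMIs the summed level was 6319 CPM in 14 mural nuclei, 5181 in 45 endothelial nuclei, 3790 in astrocytes, 2539 in excitatory neurons and 2479 in oligodendrocytes. Among nuclei of 1500 to 3000 UMIs it was 7187 CPM in endothelial cells, 6261 in astrocytes, 6000 in inhibitory neurons, 5537 in excitatory neurons and 3891 in microglia. Below 1500 UMIs, where 495 of the 810 endothelial nuclei lay, it was 10297 CPM in astrocytes, 8937 in endothelial cells and 7818 in excitatory neurons (130 nuclei). Among nuclei with 1 to 5% mitochondrial UMIs, summed over libraries, the order turned in part. The level was 11605 CPM in unsplit, 11569 in inhibitory and 9900 in excitatory neurons (32 nuclei). It was 9881 CPM in astrocytes, 9237 in endothelial cells and 7431 in granule neurons. The third CIH library supplied 71 of the 95 inhibitory and 23 of the 32 excitatory nuclei there, at 13309 and 12336 CPM. The other libraries held at most 6 inhibitory and 4 excitatory nuclei each, at 4888 to 13153 and 4141 to 15337 CPM. Endothelial cells were thus above excitatory neurons in the lowest mitochondrial bin and in the depth bins given, where the gap was smaller than over all nuclei. Below 1500 UMIs they were under astrocytes. In the highest mitochondrial bin endothelial cells were below excitatory neurons, whose sum there rests mostly on the third CIH library. At most 0.1% mitochondrial UMIs, edgeR called 0 members higher and 1 lower in endothelial cells, against 2.36% and 4.12% of all genes.

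Several complex IV isoforms were distributed unevenly over classes. Ndufa4l2, a paralog of Ndufa4 known as a target of hypoxia-inducible factor (chr10:127514967-127517154, plus strand), was concentrated in mural cells, at 37 UMIs or 132 CPM summed over libraries. It was found in 29 of 195 mural nuclei (14.9%, exact binomial 95% interval 10.2 to 20.7%), against 0.102% of 11797 oligodendrocytes, which had the greater median depth (2442 UMIs per nucleus against 1318). Intervals on counts cover counting error only. Endothelial cells had 18 UMIs or 15.0 CPM, oligodendrocytes 12 UMIs or 0.344 CPM and all neurons 37 UMIs or 0.288 CPM. The mural level was 8.76 times the endothelial level (95% interval 4.86 to 16.3) and 458 times that of neurons (283 to 743). Fibroblasts had 0 UMIs, which allows up to 10.6 CPM, and precursors 0 UMIs, which allows up to 3.66 CPM. The gene overlaps Shmt2 on the other strand, and whether counting used strand is not given in the sources used here.

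Cox4i2, the isoform of the regulatory subunit 4 known from lung and low-oxygen responses (chr2:152754173-152765037, plus strand), followed the same order. Mural cells had 27 UMIs or 96.2 CPM in 23 nuclei (11.8%), endothelial cells 8 UMIs or 6.69 CPM, oligodendrocytes 18 UMIs or 0.517 CPM and neurons 64 UMIs or 0.498 CPM. The mural level was 14.4 times the endothelial one (95% interval 6.36 to 36.6). In the class comparison the log2 difference in mural cells was 7.88 ± 0.60 for Ndufa4l2 (edgeR adjusted p = 3.89e-18) and 6.71 ± 0.53 for Cox4i2 (edgeR adjusted p = 5.23e-18), fitted values that depend on the prior count because other classes reach 0. By library, mural Ndufa4l2 measured 470, 247 and 87.0 CPM under CIH and 152, 198 and 149 CPM under normoxia, from 2 to 17 UMIs each, so the groups overlapped. CIH was not tested in mural cells, where 5 of the 6 libraries held under 20 nuclei.

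Markers of mural cells were present in the endothelial nuclei at 4.92% of their mural level (575 UMIs summed over 7 markers, 526 of them Rgs5). In the 595 endothelial nuclei with no mural marker UMI, Ndufa4l2 stood at 8.54 CPM and Cox4i2 at 3.66 CPM, from 7 and 3 UMIs. In the 215 endothelial nuclei with such UMIs the values were 29.2 and 13.3 CPM, and the part of mural RNA in them was not tested. Their widely used counterparts were less uneven. Ndufa4 ran from 58.3 CPM in excitatory neurons to 208 CPM in endothelial cells, and Cox4i1 from 97.8 CPM to 348 CPM in the same classes. The endothelial log2 difference was 0.61 ± 0.15 for Ndufa4 (edgeR adjusted p = 0.000372) and 0.79 ± 0.13 for Cox4i1 (edgeR adjusted p = 3.00e-07), and Cox4i1 overlaps Gm20388 on the same strand.

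**Figure D3:**
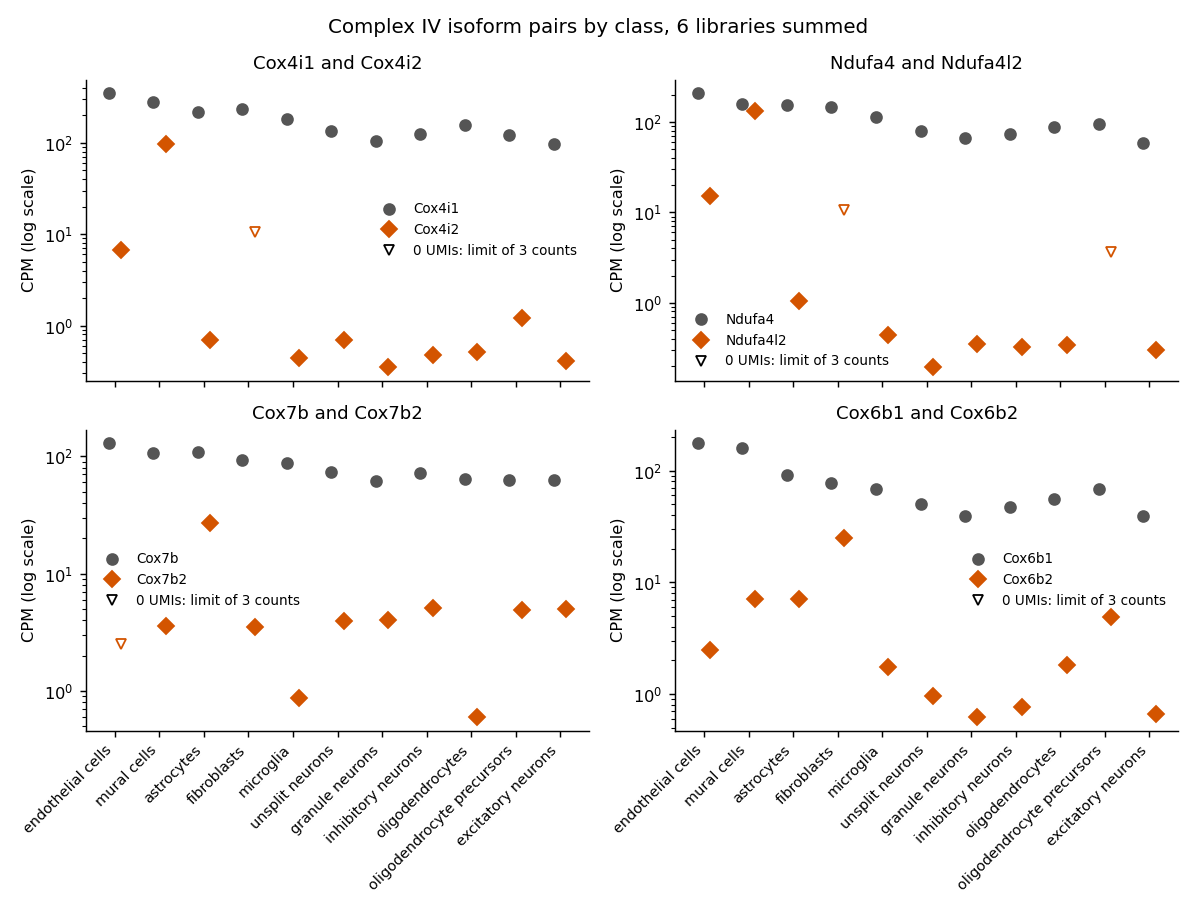
CPM summed over 6 libraries (vertical axes, log scale) of 4 pairs of complex IV isoforms in each class; open triangles mark classes with 0 UMIs at the limit of 3 counts. Cox4i2 and Ndufa4l2 peak in mural cells at 96.2 and 132 CPM, and Cox7b2 in astrocytes at 27.1 CPM.

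Cox7b2, a paralog of Cox7b best known from testis (chr5:71442824-71548205, minus strand), was highest in astrocytes. It measured 51.6, 19.8 and 21.9 CPM under CIH and 38.5, 28.4 and 33.4 CPM under normoxia there, so the groups overlapped. Its log2 difference there was 3.98 ± 0.36 (edgeR adjusted p = 3.99e-16). The astrocyte level was 5.97 times that of all neurons (95% interval 4.64 to 7.58), 44.9 times that of oligodendrocytes (27.4 to 76.7) and at least 10.8-fold higher than in endothelial cells, which had 0 UMIs. Neurons in turn were 7.53 times above oligodendrocytes, and edgeR called Cox7b2 higher in inhibitory, excitatory and granule neurons. Cox6b2, the testis isoform of Cox6b1, had 20 UMIs or 7.04 CPM in astrocytes and 0.777 CPM in neurons, a ratio of 9.05 (5.30 to 14.7). Fibroblasts had the higher level, 24.8 CPM from 7 UMIs, at 31.9 times that of neurons (12.5 to 68.2) and a log2 difference of 3.11 ± 0.84 (edgeR adjusted p = 0.00313), which was -5.48 with the stricter gate. Of the muscle isoforms, Cox7a1, Cox6a2 and Cox8b reached at most 7.12, 0.439 and 0.836 CPM in any class, from 2, 1 and 1 UMIs there.

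Between CIH and normoxia no member passed the test in all kept nuclei or in any of 9 classes, in edgeR with its low-count filter or in DESeq2. Without the filter edgeR called 4 members in excitatory, 3 in inhibitory, 1 in granule and 1 in unsplit neurons and 1 in astrocytes, and with a replicate block it called 1 in unsplit neurons. The share of all genes called in those fits is not given here, so these counts cannot be set against a background. In all nuclei 0 of 83 members tested were called, where 0.0101% of 19790 genes were (1.14% in DESeq2, 2.62% in edgeR without the third CIH library, 0.00509% after removal of shared barcodes), and 3 members had an unadjusted p under 0.05 in edgeR and 3 in DESeq2. The fold changes nevertheless lay on the same side. In all nuclei 82 of 83 were higher in CIH, against 51.2% of all genes, with a median log2 fold change of 0.46 against 0.01. Without the third CIH library 38 of 83 were higher, against 47.5% of all genes, and the median was -0.02. The summed share of the members was 0.289, 0.292 and 0.557% of UMIs with CIH, compared with 0.272, 0.261 and 0.339% under normoxia, so the other 2 CIH libraries lay between the normoxia values. In tissue sums a greater share of a cell type and more RNA per cell cannot be told apart.

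By complex, the log2 difference of the summed CPM in all nuclei was 0.33 for complex I, 0.15 for II, 0.43 for III, 0.46 for IV and 0.42 for V. Without the third CIH library the values were 0.01, 0.08, 0.02, -0.07 and 0.02. Complex II, wholly nuclear and with 3 of its 4 genes spanning 17991 bases or more, differed least with all libraries. In oligodendrocytes the differences were 0.30, 0.13, 0.39, 0.39 and 0.38, and without that library -0.16, 0.06, -0.18, -0.33 and -0.15, so complexes I, III, IV and V changed sign and complex II did not.

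Within classes the same dependence appeared. The members higher in CIH were 76 of 79 in oligodendrocytes (12 of 79 without the third CIH library), 74 of 79 in inhibitory neurons (40), 71 of 79 in excitatory neurons (24), 79 of 79 in granule neurons (42) and 78 of 79 in unsplit neurons (41). Astrocytes had 52 of 61 higher (22), microglia 55 of 68 (15 of 69) and endothelial cells 23 of 44 (13 of 48); over all genes 50.2 to 51.6% were higher in each of these 8 classes, and 48.4 to 49.7% without the third CIH library. The median log2 fold change was 0.39 in oligodendrocytes and -0.20 without that library, and 0.20 and -0.28 in microglia. In inhibitory neurons it was 0.38 and 0.00. In oligodendrocyte precursors 3 members were tested and 2 were higher. Called genes made up 0% of those tested in 7 classes, 0.00652% in inhibitory neurons and 0.0495% in oligodendrocyte precursors. In DESeq2 they made up 0.193% in oligodendrocytes, 0.0151% in granule, 0.035% in excitatory, 0.111% in inhibitory and 0.777% in unsplit neurons. Without the third CIH library edgeR called 0.0809% of genes in oligodendrocytes, 0.0456% in precursors, 0.25% in astrocytes, 0.0144% in granule, 0.0821% in excitatory, 0.193% in inhibitory and 3.27% in unsplit neurons. Without the shared barcodes it called 0.00651% in inhibitory neurons and 0.0496% in precursors, and none of these genes was a member. A difference in the CIH effect between a class and the other classes was not called for any of 81 members in the interaction fit. There 0.025% of 16013 genes were called in oligodendrocytes, 0.00624% in granule neurons and 0% in the other classes. The lowest edgeR adjusted p was 0.131, for Atp5e in endothelial cells (log2 difference -1.31 ± 0.33), and 1 to 9 members per class had an unadjusted p under 0.05. The edgeR adjusted p of Atp5e there was 0.0513 with RLE size factors (-1.59 ± 0.33) and 0.0585 without the second CIH library. Without the third CIH library the lowest edgeR adjusted p was 0.105, for Cox8a in unsplit neurons (0.56 ± 0.15), where 22 of 16184 genes were called. No member was called in these fits either.

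**Figure D4:**
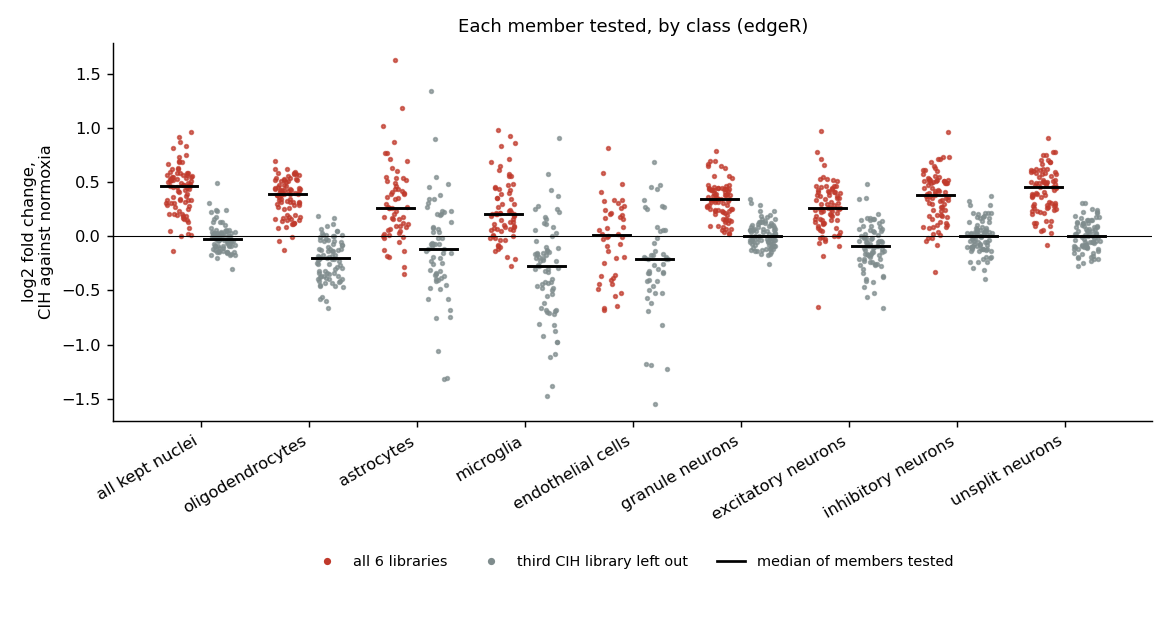
Log2 fold change of CIH against normoxia for each member tested (points, vertical axis), in all nuclei and 8 classes, with all 6 libraries and with the third CIH library left out; bars are medians. In all nuclei the median goes from 0.46 to -0.02 and in oligodendrocytes from 0.39 to -0.20.

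Some members did not overlap between the groups. In all nuclei 7 were higher in every CIH library than in every normoxia library and 0 were lower, against 9.86% and 9.19% of all genes: Atp5b and Atp5k of complex V, Uqcrc2 of complex III, Sdhb and Sdhc of complex II, and Ndufs3 and Ndufa9 of complex I. The 7 higher members are a share near the background. Atp5b, the catalytic beta subunit of ATP synthase (chr10:128083273-128090391, plus strand, with Mir677 and Snord59a inside it), measured 70.8, 69.7 and 146 CPM under CIH and 57.4, 56.9 and 62.6 CPM under normoxia. Its log2 fold change was 0.70 ± 0.29 (edgeR adjusted p = 0.446), and 0.23 ± 0.07 without the third CIH library (edgeR adjusted p = 0.160). Atp5b was without overlap in inhibitory neurons too, at 76.6, 73.9 and 138 CPM under CIH and 61.5, 58.6 and 61.4 CPM under normoxia (log2 fold change 0.69 ± 0.21, edgeR adjusted p = 0.581), and in granule neurons. In both sums the third CIH library was the highest.

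For others the third CIH library stood less apart, though it was still the highest for Uqcrc2 and Sdhc in all nuclei. Uqcrc2, a core protein of complex III (chr7:120635176-120659524, plus strand, overlapped by Pdzd9 on the other strand), measured 52.2, 54.2 and 60.1 CPM under CIH and 47.8, 47.8 and 47.7 CPM under normoxia, a log2 fold change of 0.21 ± 0.08 (edgeR adjusted p = 0.433). Sdhc, a membrane anchor of complex II (chr1:171127165-171150603, minus strand), measured 29.99, 33.9 and 34.2 CPM against 29.3, 27.3 and 27.96 CPM, a log2 fold change of 0.21 ± 0.09 (edgeR adjusted p = 0.445). Ndufa9, an accessory subunit near the quinone site of complex I (chr6:126821721-126849136, minus strand), measured 22.2, 23.4 and 21.4 CPM in CIH excitatory neurons and 18.4, 15.2 and 14.6 CPM in normoxia ones. Its log2 fold change was 0.46 ± 0.15 there with all libraries (edgeR adjusted p = 0.720) and 0.48 ± 0.17 without the third CIH library (edgeR adjusted p = 0.471). In microglia Ndufa9 measured 56.7, 42.3 and 49.9 CPM under CIH and 25.6, 24.9 and 26.4 CPM under normoxia, from 9 to 17 UMIs per library, a log2 fold change of 0.92 ± 0.32 (edgeR adjusted p = 0.914). Without the third CIH library the log2 fold change was 0.13 for Uqcrc2 and 0.16 for Sdhc in all nuclei and 0.91 for Ndufa9 in microglia, and none passed the adjusted threshold.

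In inhibitory neurons 8 members were higher without overlap and 0 lower, against 7.18% and 5.39% of all genes; in excitatory neurons 7 and 0, against 7.22% and 4.99%; in unsplit neurons 7 and 0, against 9.19% and 6.93%. Granule neurons had 4 and 0 (6.19% and 7.29%), astrocytes 3 and 0 (5.39% each), microglia 2 and 0 (5.7% and 4.99%), endothelial cells 1 and 2 (6.85% and 6.02%) and oligodendrocytes 0 and 0 (6.86% and 5.25%). Oligodendrocyte precursors had 0 and 0 of 3 members tested, against 6.43% and 5.29% of all genes. The smallest p of any member in any class belonged to Uqcr11, a small subunit of complex III (chr10:80402997-80406830, minus strand), in astrocytes. It measured 56.7, 47.6 and 72.2 CPM under CIH and 23.1, 19.0 and 18.6 CPM under normoxia, from 5 to 12 UMIs in each library but the third CIH one, which held more. The log2 fold change was 1.63 ± 0.37 (edgeR adjusted p = 0.230), and 1.35 ± 0.56 without that library (edgeR adjusted p = 0.495). In endothelial cells Cox7b, a complex IV subunit encoded on the X chromosome (chrX:106015700-106022450, plus strand), was lower in every CIH library, at 64.9, 83.4 and 137 CPM against 156, 192 and 166 CPM, a log2 fold change of -0.68 ± 0.33 (edgeR adjusted p = 0.805), and -1.19 ± 0.40 without the third CIH library (edgeR adjusted p = 0.452).

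The third libraries differed from the other 2 of their group along the members' span. In all nuclei 80 of 83 members were higher in the third CIH library than in the mean of the other 2, with a median log2 difference of 1.09, from -0.20 for Ndufs4 to 1.79 for Atp5e. In normoxia 75 of 83 were higher, with a median of 0.39, from -0.29 for Ndufa9 to 0.85 for Atp5e. The median was 1.26 for the 27 members under 5000 bases, 1.07 for the 45 between and 0.18 for the 11 of 20000 bases or more in CIH, and 0.57, 0.35 and -0.00 in normoxia. These values were computed for the members only, so they do not show a trait particular to the members. The fold change of CIH against normoxia correlated with span over the 83 members at a Spearman rho of -0.59, which was 0.13 without the third CIH library and, with all libraries, -0.00 over 19776 genes.

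Over all kept nuclei, those with a larger mitochondrially encoded share also had a larger share of the members' UMIs in every library. The mix of classes was not held fixed over these bins. Depth fell over the same bins in every library. Its median went from 4276 to 1494 UMIs per nucleus in the first CIH library and from 6672 to 1247 in the third. The values below are therefore shares and not amounts per nucleus. From nuclei with at most 0.1% to those with 1 to 5% mitochondrial UMIs, the members' sum went from 2655 to 8680 CPM in the first CIH library, from 2673 to 8082 in the second and from 3099 to 12085 in the third. In normoxia it went from 2547 to 6994, from 2433 to 8862 and from 3095 to 8429 CPM. In the third CIH library 12.7% of nuclei had at most 0.1%, compared with 51.4 to 63.6% elsewhere. In those nuclei alone the third CIH library and the third normoxia library had nearly the same level, each the highest of its group. With all libraries 64 of 82 members were higher in CIH there, and the median log2 fold change was 0.09. The share of all genes higher in that fit is not given here. Above 0.1%, the third CIH library was highest in each bin, at 4846, 7746 and 12085 CPM against at most 3806, 4980 and 8862 CPM. Within oligodendrocytes the sum went from 2188 to 4039 CPM in the first normoxia library and from 3468 to 10221 CPM in the third CIH library. Granule neurons were lower at 1 to 5% than at 0.3 to 1% in each normoxia library, at 3473 against 4099 CPM in the first, from 2 nuclei. In each CIH library they were higher.

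**Figure D5:**
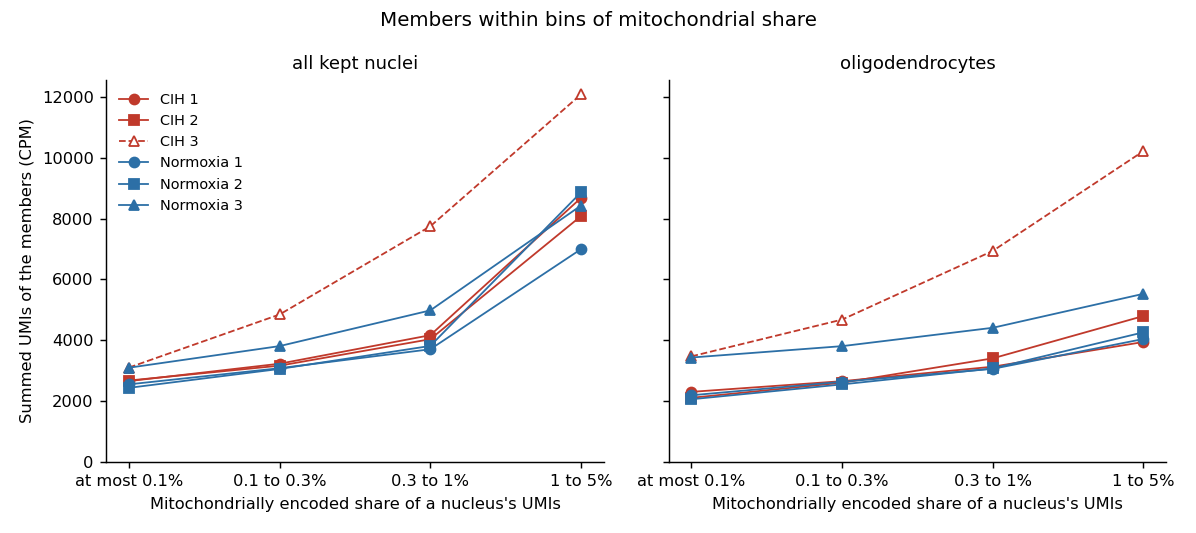
Summed CPM of the members (vertical axis) in nuclei binned by mitochondrially encoded share of UMIs (horizontal axis), with a line for each library, for all kept nuclei and oligodendrocytes. In all nuclei the third CIH library (dashed) starts at 3099 CPM, near the third normoxia library at 3095 CPM, and ends at 12085 CPM.

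Other genes of the pathway were read from lists of related genes in all nuclei, and 0 genes of any list were called. All 13 mitochondrially encoded subunits were higher in CIH, with a median log2 fold change of 0.89, and 12 of 13 without the third CIH library, with 0.28. Among them mt-Nd3, a membrane-arm subunit of complex I, measured 18.7, 21.8 and 19.1 CPM under CIH and 12.5, 11.8 and 7.77 CPM under normoxia, so the groups did not overlap and the third CIH library was not apart. Its log2 fold change was 0.89 ± 0.18 (edgeR adjusted p = 0.275), and 0.91 without that library (edgeR adjusted p = 0.0573). Assembly factors, which build the complexes without staying in them, showed no common side, with 23 of 44 higher and a median of 0.01. Ndufaf7, a complex I assembly factor, measured 69.2, 68.0 and 50.1 CPM under CIH and 76.97, 75.01 and 71.1 CPM under normoxia (log2 fold change -0.26 ± 0.12, edgeR adjusted p = 0.477). Regulators of respiratory gene transcription had 10 of 15 higher and a median of 0.04; Nrf1, the nuclear respiratory factor, had a log2 fold change of 0.09 ± 0.06 (edgeR adjusted p = 0.612). Esrrg, an orphan nuclear receptor, measured 439, 413 and 416 CPM under CIH and 472, 462 and 509 CPM under normoxia, a log2 fold change of -0.20 ± 0.07 (edgeR adjusted p = 0.415). Genes of mobile carriers and linked dehydrogenases had 5 of 8 higher and a median of 0.21. Of the 90 ribosomal protein genes tested, which belong to no respiratory complex, 85 were higher with a median of 0.45, and 51 without the third CIH library with a median of 0.01, beside 0.46 and -0.02 over the members.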

How the data were processed

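Single-nucleus RNA was measured in 6 filtered matrices. The authors deposited raw UMI counts of 32285 genes from Cell Ranger (6.1.2 per the file headers, 3.1.0 per the submitters' processing notes; these list Seurat 4.0 and mm10 as well). Whether intronic reads were counted is not given in the sources used here. Gene positions are those of GENCODE M21 (mm10), and promoters from RefSeq tables of GRCm38.p6.

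Each library's counts were added up for all kept nuclei together and for every gated class. Doublets were left in, except where the gate left out nuclei with markers of several classes. CIH was compared with normoxia with edgeR 4.0.16 in R 4.3.3 (quasi-likelihood test after TMM scaling and filterByExpr; p adjusted by Benjamini-Hochberg over all genes, threshold 0.05) in all nuclei and in 9 classes with at least 20 nuclei in every library. Each of 11 classes with at least 10 nuclei in at least 4 libraries was compared with the mean of the others, with library as a block, and the CIH effect was compared between classes in an interaction fit. Values after ± without a unit are standard errors for log2 differences and SD for levels. DESeq2 1.42.0 was run on the same counts. The analysis in Python 3.11.15 used scanpy 1.11.5, numpy 2.4.6, pandas 2.3.3 and scipy 1.17.1. The fits were tested on simulated data. Depth per library limits precision as given by the UMI totals.

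Named genes were, per complex, the 1 or 2 members of smallest p in all nuclei, oligodendrocytes, excitatory and inhibitory neurons, the 3 of smallest p in other classes, up to 4 called members with the largest positive and 3 with the largest negative class difference, the isoform pairs, the SDH subunits, and 3 genes of smallest p per list. The endothelial and excitatory values set beside a named gene, the non-overlapping members and the extremes of the third libraries against the others were picked after their values were seen. Members, markers and lists were chosen with earlier results of these data known. Atp5if1 is not reported because no row carries that symbol. Alternatives were RLE size factors, DESeq2, no low-count filter, a replicate block, each library left out, stricter nuclei, a stricter gate, gated nuclei without granule neurons and the removal of top-scoring doublets. Leaving out shared barcodes and using 9 in place of 11 classes were alternatives chosen after seeing the data.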

Additional observations from a re-analysis of the deposited data

How the results depend on the processing

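In CIH against normoxia no member was called in all nuclei or any class when any 1 library was left out. Without a low-count filter 1 member was called in astrocytes, 1 in granule neurons, 4 in excitatory, 3 in inhibitory and 1 in unsplit neurons. These counts too stand without the share of all genes called. The medians over members ranged, leaving out each library, from -0.0243 to 0.68 in all nuclei, -0.20 to 0.69 in oligodendrocytes, -0.11 to 0.46 in astrocytes, -0.28 to 0.59 in microglia, -0.21 to 0.18 in endothelial cells, 0.01 to 0.58 in granule, -0.0877 to 0.43 in excitatory, 0.000487 to 0.55 in inhibitory and 0.0067 to 0.61 in unsplit neurons, each lowest without the third CIH library. With that library and the shared barcodes left out they were -0.0164 in all nuclei, -0.20 in oligodendrocytes, -0.13 in astrocytes, -0.28 in microglia, -0.21 in endothelial cells, -0.0884 in excitatory, 0.0026 in inhibitory and 0.0055 in unsplit neurons. At most 0.1% mitochondrial UMIs gave -0.0243 in oligodendrocytes, 0.0466 in inhibitory and 0.0188 in unsplit neurons. The endothelial median of 0.01 was -0.0128 in DESeq2. Correlations of same-numbered deviations were 0.04, 0.19 and 0.20 for replicates 1, 2 and 3. CIH replicates 2 and 3 each correlated best with the normoxia library of the same number. CIH replicate 1 correlated best with normoxia replicate 2, at 0.17, and these libraries shared 1163 barcodes. Whether the libraries were paired by number is not settled by these values. With the replicate block 1 member was called in unsplit neurons and the endothelial median was -0.0074. Summed CPM ranged, leaving out each library, from 0.01 to 0.47, 0.08 to 0.20, 0.02 to 0.61, -0.0728 to 0.67 and 0.02 to 0.59 (log2) for complexes I to V in all nuclei, and from -0.16 to 0.53, 0.06 to 0.18, -0.18 to 0.68, -0.33 to 0.77 and -0.15 to 0.62 in oligodendrocytes, where complex II was 0.0208 at most 0.1% mitochondrial UMIs.

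For classes, members called among the 17 of oligodendrocytes became 33 with RLE size factors, 37 with DESeq2, 31 with the stricter gate and 31 with 9 classes. The 4 of precursors became 7 without a filter, 2 in normoxia, 7 with the stricter gate and 10 with 9 classes. The 41 of astrocytes became 12 at most 0.1% mitochondrial UMIs. The 11 of microglia became 6 with the stricter gate, 4 at most 0.1% and 17 with 9 classes. The 63 of endothelial cells became 40 in normoxia and 1 at most 0.1%, where at most 45 endothelial nuclei entered the fit. The 5 of mural cells became 9 with DESeq2, 2 in normoxia and 3 with the stricter gate, and the 4 of fibroblasts 1 with RLE, 1 with DESeq2, 0 in normoxia and 0 with the stricter gate. In normoxia, with the stricter gate and at most 0.1%, excitatory neurons had 21, 28 and 14, inhibitory 15, 20 and 20, unsplit 12, 10 and 13, and granule neurons had 12 in normoxia and 10 with the stricter gate. Leaving out each library gave 9 to 17, 5 to 8, 31 to 42, 8 to 19, 55 to 64, 3 to 5, 0 to 4, 13 to 25, 39 to 62, 24 to 49 and 16 to 35 in oligodendrocytes, precursors, astrocytes, microglia, endothelial, mural, fibroblast, granule, excitatory, inhibitory and unsplit classes. These counts join members called higher and lower. The shares of all genes called are given only for some of these settings, in the class results above. The counts therefore do not show a change particular to the members. The causes were not tested.

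Of single members, 17 CIH values and 15 class values changed sign. With the shared barcodes and the third CIH library left out these were, in excitatory neurons, Atp5b at -0.0116 and Uqcrq at -0.0353, and in oligodendrocytes Uqcrc1 at -0.0060, Uqcrq at -0.17, Cox6a1 at -0.23 and Cox7a2l at -0.0432. Leaving out each library gave ranges of -0.0097 to 0.582 for Atp5b and -0.0256 to 0.756 for Uqcrq in excitatory neurons, and in oligodendrocytes -0.000745 to 0.475 for Uqcrc1, -0.17 to 0.947 for Uqcrq, -0.23 to 0.675 for Cox6a1 and -0.0469 to 0.487 for Cox7a2l. They were -0.222 to 0.276 for Ndufs4 in precursors, and for the mural class differences -0.127 to 1.21 for Ndufa2 and -0.299 to 1.03 for Atp5g2. At most 0.1% mitochondrial UMIs gave Uqcrq -0.10 and Cox6a1 -0.15 in oligodendrocytes and Atp5b -0.11 in microglia, and stricter nuclei gave Ndufs4 -0.17 in precursors. Class differences at most 0.1% were Sdhd -6.18 in endothelial cells (at most 45 nuclei), Ndufs6 0.42 in excitatory, Cox6b2 0.20 in inhibitory and 0.57 in unsplit neurons, Sdhb 0.78 in precursors, Ndufv2 0.37 in microglia and Uqcrc1 0.67 in oligodendrocytes. In normoxia alone they were Atp5g2 -0.0464 in mural cells, Atp5e 0.19 in inhibitory and 0.48 in unsplit neurons and Uqcrc1 0.51 in oligodendrocytes, and with the stricter gate Cox6b2 -5.48 in fibroblasts and Uqcrc1 0.0194 in oligodendrocytes.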
